A study of Mus musculus with 15 samples.

Results

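The EGF family ligands are secreted or membrane-tethered growth factors that bind ErbB receptor tyrosine kinases. The 8 genes described here, Areg, Ereg, Hbegf, Epgn, Btc, Tgfa, Egf and Nrg1, were found by gene identifier among the 27179 genes of a deposited count table, and each was present. RNA was sequenced from sorted mouse intestinal epithelial cells of animals carrying both the Lrig1-eGFP-IRES-CreERT2 reporter and the APCmin mutation, which predisposes to intestinal tumors. Colonic tumors and normal colonic epithelium of such animals were sorted for EpCam, against CD45 and CD31, and by the green fluorescence of the reporter, whose gene, Lrig1, encodes a membrane protein that restrains ErbB receptors. The groups held 3 tumor Lrig1-high, 4 tumor Lrig1-low, 4 normal Lrig1-high and 4 normal Lrig1-low libraries, and the normal cells carry the APCmin mutation as well. With 357 counts in all, S15 of the tumor Lrig1-low group was set aside, which leaves 3 libraries in that group. The labels name no animal and give no age, so the tests measure the spread between these libraries, which may be technical in part.

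In the pathway, ligands are made as membrane precursors and cut free by ADAM metalloproteases. Areg, Epgn, Tgfa and Egf bind EGFR, while Ereg, Btc and Hbegf bind EGFR and ERBB4, and Nrg1 binds ERBB3 and ERBB4. Bound receptors signal through RAS to ERK, and ERK output includes genes for feedback inhibitors such as Dusp6. In the gut these ligands are known for supporting crypt growth and repair, and Paneth cells of the small intestinal crypt are a known source of Egf.

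Before the results, 3 facts on the libraries bear on them. The 14 libraries used held 9508505 to 17296536 counts, and the tumor Lrig1-high library S12 stood apart, with 42.8% of its counts in mitochondrial ribosomal RNA against 12.9% to 27.1% in the others. Lrig1 itself averaged 92.06 ± 49.3 CPM (counts relative to the scaled library total, SD) in tumor Lrig1-high cells and 79.21 ± 54.2 CPM in tumor Lrig1-low cells (n = 3 each, two-sided exact permutation p = 0.5, where 0.1 is the smallest possible). In normal epithelium it averaged 111.7 ± 50.9 CPM in Lrig1-high and 59 ± 18 CPM in Lrig1-low cells (n = 4 each, two-sided exact permutation p = 0.171). In S07 to S10, Lrig1 lay on the side of the median of all 14 libraries (64.04 CPM) opposite to that of each label. It was at 141.6 CPM in S07, 55.62 in S08, 85.48 in S09 and 36.35 in S10. S08 was above the tumor Lrig1-low libraries other than S07 (42.96 and 53.12 CPM), and S09 was below the normal Lrig1-high median (132.2 CPM). A list of 10 stem cell markers summed to 7393 CPM in S07, 858.1 in S08, 2716 in S09 and 488.3 in S10. The other Lrig1-high libraries held 4975 to 8105 CPM of it, and the other Lrig1-low libraries 543.6 to 1705 CPM. S07 to S10 were kept under their labels, which limits each Lrig1-high over Lrig1-low comparison. Epcam was at 604 to 1509 CPM, Ptprc (CD45) at 0 to 46.05 CPM and Pecam1 (CD31) at 0 to 1.85 CPM. The tissue is named colon by the labels alone: the median of 8 colon markers was 0.108 to 10.96 CPM per library, with Hoxb13 at 0 in each, against 73.45 to 261.2 CPM for 8 small intestine markers.

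Areg, Epgn, Ereg and Btc lie side by side on chromosome 5 (mm10), where they and 2 other genes of the table span 375478 bases. Epgn (91027517 to 91035212), Ereg (91074617 to 91093649) and Areg (91139615 to 91148432) are on the plus strand and Btc (91357261 to 91402994) is on the minus strand. Tgfa is on chromosome 6 (86195251 to 86275449), while Egf is on chromosome 3 (129677575 to 129755322) and Nrg1 on chromosome 8 (31818028 to 31918203). These spans are those of the counted exons. Opposite-strand genes of the table overlap Ereg and Egf, and the authors counted by strand.

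The promoters of 3 of the 4 ligands that were highest in the same tumor library (Areg, Btc, Tgfa) and of Egf, which followed another order, are shown for comparison. Each runs from 250 bases before to 50 bases after the start in the RefSeq table of build GRCm38.p6, on the strand of the gene, with motif matches in capitals.
Areg, chr5:91139349-91139648, plus strand: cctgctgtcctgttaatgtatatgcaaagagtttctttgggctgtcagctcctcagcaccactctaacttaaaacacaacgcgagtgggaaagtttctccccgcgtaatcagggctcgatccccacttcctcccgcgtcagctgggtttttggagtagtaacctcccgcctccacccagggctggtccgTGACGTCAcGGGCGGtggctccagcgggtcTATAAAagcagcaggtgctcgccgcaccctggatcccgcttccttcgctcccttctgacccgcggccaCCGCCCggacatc
Btc, chr5:91402945-91403244, minus strand: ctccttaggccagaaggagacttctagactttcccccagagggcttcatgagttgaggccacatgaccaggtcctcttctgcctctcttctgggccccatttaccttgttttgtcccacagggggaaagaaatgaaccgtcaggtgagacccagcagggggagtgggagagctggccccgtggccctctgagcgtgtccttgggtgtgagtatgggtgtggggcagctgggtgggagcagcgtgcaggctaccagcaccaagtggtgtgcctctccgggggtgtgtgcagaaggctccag
Tgfa, chr6:86194972-86195271, plus strand: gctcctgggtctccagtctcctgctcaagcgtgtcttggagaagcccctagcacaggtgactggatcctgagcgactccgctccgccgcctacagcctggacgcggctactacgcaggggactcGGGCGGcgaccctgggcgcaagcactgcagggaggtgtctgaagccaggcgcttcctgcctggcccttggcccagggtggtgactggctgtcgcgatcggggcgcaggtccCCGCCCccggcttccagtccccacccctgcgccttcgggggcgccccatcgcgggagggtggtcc
Egf, chr3:129755273-129755572, minus strand: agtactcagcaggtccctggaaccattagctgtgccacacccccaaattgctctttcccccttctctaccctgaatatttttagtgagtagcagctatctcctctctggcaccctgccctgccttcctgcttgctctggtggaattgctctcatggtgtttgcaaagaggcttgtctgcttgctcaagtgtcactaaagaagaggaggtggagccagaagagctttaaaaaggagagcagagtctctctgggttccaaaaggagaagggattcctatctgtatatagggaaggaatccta
Both strands were searched for 6 motifs: the cAMP response element TGACGTCA, the AP-1 site TGANTCA, the TATA box TATAAA, the GC box GGGCGG, the TEAD site GGAATG and the TCF/LEF core CTTTGA. Areg held a cAMP response element with its first base at position -61 (counted from the start), a TATA box at -31 and GC boxes at -52 and 38. Of 32851 promoters of this length in the table, 1.79% held that response element, 13.6% a TATA box and 35.7% a GC box. Tgfa held GC boxes at -126 and -15, and 70.7% of its bases were G or C, against 59.3% in Areg, 60.3% in Btc, 49.0% in Egf and a median of 52.7% over the table. Btc and Egf held none of the 6 motifs in these windows. AP-1, TEAD and TCF/LEF letters, held by 7.81%, 14.7% and 16% of promoters, were in none of these 4 windows.

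The ligand RNA of these cells was made up mainly of Hbegf, Btc, Tgfa and Areg. Per kilobase of counted exon, the scale on which genes can be compared, Hbegf averaged 5.781 ± 2.583 CPM per kilobase over the 14 libraries (SD). Btc averaged 4.085 ± 2.927, Tgfa 3.952 ± 1.581 and Areg 2.346 ± 2.639 CPM per kilobase on the same scale. Below these came Egf with 0.574 ± 0.453, Ereg with 0.109 ± 0.164, Nrg1 with 0.0184 ± 0.0412 and Epgn with 0.00607 ± 0.0227 CPM per kilobase. Neighbours in this order were not clearly separated at the top: Hbegf was above Btc in 10 of 14 libraries and Btc above Tgfa in 5 of 14, so the levels of Btc and Tgfa lay within their spread. Tgfa was above Areg in 12 libraries, Areg above Egf in 11 and Egf above Ereg in 12. Hbegf, the heparin-binding ligand, accounted for 35.6% ± 12.2 of the summed ligand level (SD, n = 14). Its share averaged 41.2% in tumor Lrig1-high libraries (28.2% to 67%, the highest in S12) and 24.1% in tumor Lrig1-low libraries, against 33.2% in normal Lrig1-high and 42.3% in normal Lrig1-low libraries.

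The summed level of the 8 ligands was 11.25, 17.77 and 11.13 CPM per kilobase in tumor Lrig1-high libraries and 24.89, 12.71 and 41.85 in tumor Lrig1-low libraries. In normal epithelium it lay between 9.22 and 19.23 CPM per kilobase in Lrig1-high and between 12.90 and 20.33 in Lrig1-low libraries. The tumor Lrig1-low libraries S11 and S03 therefore had the highest sums of the 14, while S07 of the same group lay within the range of normal epithelium. In RNA from sorted pools of cells, fewer cells of a type and less RNA per cell cannot be told apart. Areg took 1.62% to 12.9% of the sum in tumor Lrig1-high and 15.8% to 24.8% in tumor Lrig1-low libraries, and its share was 2.99% to 14.7% in normal Lrig1-high and 6.77% to 17.9% in normal Lrig1-low libraries.

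**Figure D1:**
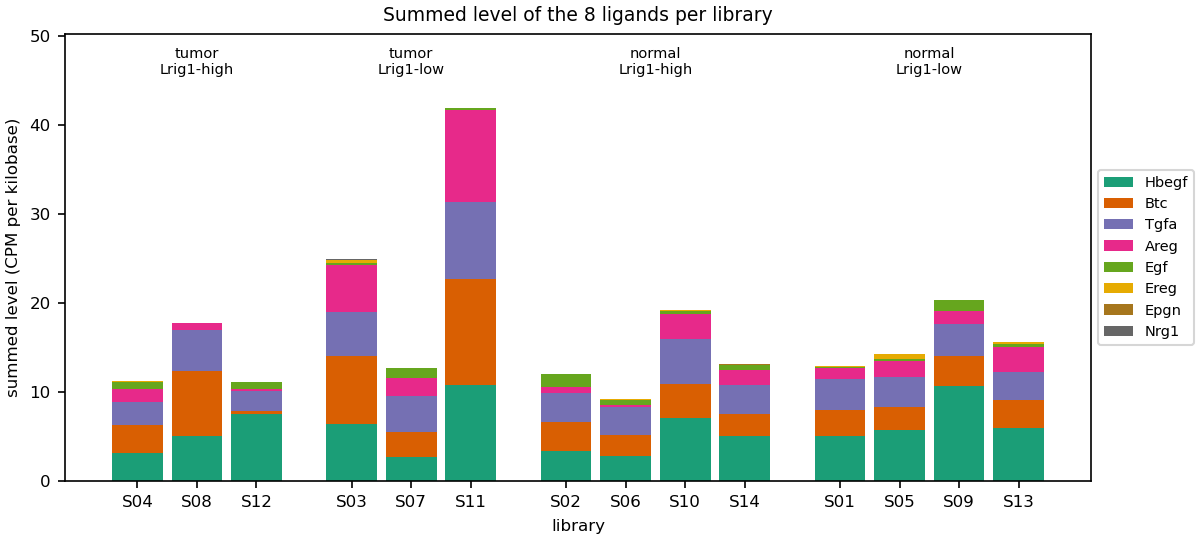
Summed level of the 8 ligands in each of the 14 libraries, in CPM per kilobase of counted exon, with a bar per library split by ligand and libraries set side by side by group. S11 (41.85) and S03 (24.89), both tumor Lrig1-low, are the tallest bars, and Ereg, Epgn and Nrg1 are barely visible.

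Of the 8 ligands, 5 (Areg, Hbegf, Btc, Tgfa, Egf) passed the filter on low counts, and none of these was called in any of the 6 comparisons, where called means an adjusted p under 0.05 over 13883 genes (edgeR's quasi-likelihood F test). Of the genes tested, 0.331% were called for tumor over normal in Lrig1-low cells, 0% for the same in Lrig1-high cells and 2.22% for the mean of both fractions. For Lrig1-high over Lrig1-low 0% were called in tumors and 0% in normal epithelium, and 0% for the interaction, the difference between the tumor effects of the fractions. At an unadjusted p under 0.05 there was 1 of 5 ligands (Tgfa) for tumor over normal in Lrig1-low cells, where 14% of genes had one, and 2 of 5 (Areg and Tgfa) for Lrig1-high over Lrig1-low in tumors, where 7.51% had one. The other comparisons had 0 of 5, against 11.2% of genes for tumor over normal in Lrig1-high cells, 17.4% for the mean of both fractions, 3.59% for the fractions of normal epithelium and 7.2% for the interaction. DESeq2 also called 0 ligands in each comparison, and limma-voom with sample weights called 2 (Btc and Tgfa), both for tumor over normal in Lrig1-low cells. In that comparison limma-voom called far more of all genes than edgeR did, with the counts given in the last section. The edgeR share of 0.331% is therefore not the background for these 2 ligands. It weighted the tumor Lrig1-low libraries at 2.31 (S03), 0.609 (S11) and 0.388 (S07), so S03 counted most.

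Areg, amphiregulin, a low-affinity EGFR ligand, had the widest spread relative to its mean of the 5 tested ligands (SD over mean of 1.12 over the 14 libraries). It was at 1.743, 1.003 and 0.216 CPM in tumor Lrig1-high libraries S04, S08 and S12, and at 6.262, 2.413 and 12.42 CPM in tumor Lrig1-low libraries S03, S07 and S11. In normal epithelium it was at 0.820, 0.331, 3.392 and 2.099 CPM in Lrig1-high libraries and at 1.548, 2.147, 1.650 and 3.342 CPM in Lrig1-low libraries. The tumor Lrig1-high libraries were all below the tumor Lrig1-low ones, a separation in this direction that 5.22% of the genes tested showed. In tumors the high-over-low log2 fold change was -2.81 ± 0.98 (SE), with an unadjusted p of 0.0128 and an adjusted p of 0.655 (edgeR), so Areg was not called. Leaving out each library in turn gave -3.49 (without S04) to -2.11 (without S11), and it was -2.29 without S12.

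For tumor over normal in Lrig1-low cells, 2 of 3 tumor libraries had more Areg than each normal library, and S07 lay within the normal range. The log2 fold change was 1.69 ± 0.85 (edgeR, adjusted p = 0.412), and 0.99 ± 0.96 without S11. In Lrig1-high cells the groups overlapped, with a log2 fold change of -0.73 ± 0.88 (edgeR, adjusted p = 0.737), and the interaction was -2.42 ± 1.24 (edgeR, adjusted p = 0.691). Areg had 548 counts in all over the 14 libraries.

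Btc, betacellulin, was steady in normal epithelium and scattered in tumors. Its level was 9.034, 20.97 and 1.08 CPM in tumor Lrig1-high libraries S04, S08 and S12, and 21.81, 8.158 and 34.31 CPM in tumor Lrig1-low libraries S03, S07 and S11. Normal libraries stayed between 7.014 and 11.09 CPM in Lrig1-high and between 7.424 and 9.769 CPM in Lrig1-low cells. Both tumor groups overlapped their normal counterparts, with 2 of 3 tumor Lrig1-low libraries above all 4 normal ones. The log2 fold change of tumor over normal was 1.31 ± 0.67 in Lrig1-low cells (edgeR, adjusted p = 0.421) and 0.26 ± 0.67 in Lrig1-high cells (edgeR, adjusted p = 0.881). Without S11 the first was 0.79 ± 0.74, and by limma-voom with sample weights it was 1.27 ± 0.32 with an adjusted p of 0.023. The high-over-low change was -1.05 ± 0.72 in tumors (edgeR, adjusted p = 0.736) and 0.0027 ± 0.62 in normal epithelium (edgeR, adjusted p = 1). Leaving out each library in turn gave -2.07 (without S08) to -0.471 (without S12) for the change in tumors, and -0.53 without S11.

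Tgfa, transforming growth factor alpha, was the ligand whose tumor and normal groups did not overlap in Lrig1-low cells. Its level was 10.86, 19.33 and 9.504 CPM in tumor Lrig1-high libraries S04, S08 and S12, and 20.97, 17.35 and 36.60 CPM in tumor Lrig1-low libraries S03, S07 and S11. Normal epithelium held 13.81, 12.90, 21.14 and 13.60 CPM in Lrig1-high libraries and 14.75, 14.40, 15.31 and 13.45 CPM in Lrig1-low libraries. All 3 tumor Lrig1-low libraries were above all 4 normal Lrig1-low libraries, as were 9.93% of the genes tested. The log2 fold change was 0.79 ± 0.34 (edgeR, unadjusted p = 0.0348, adjusted p = 0.310), so Tgfa was not called, and it was 0.40 ± 0.35 without S11. By limma-voom with sample weights it was 0.67 ± 0.20, with an adjusted p of 0.0477. In Lrig1-high cells tumor over normal was -0.22 ± 0.34 (edgeR, adjusted p = 0.800). Within tumors the high-over-low change was -0.92 ± 0.36 (edgeR, unadjusted p = 0.0253, adjusted p = 0.655), with S08 inside the Lrig1-low range, and -0.53 ± 0.37 without S11. The interaction was -1.002 ± 0.480 (edgeR, adjusted p = 0.685).

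Hbegf, heparin-binding EGF-like growth factor, whose gene is on chromosome 18, had the highest mean per kilobase over the 14 libraries. In tumor Lrig1-low libraries, however, Btc averaged 7.45 ± 4.547 and Hbegf 6.602 ± 4.054 CPM per kilobase (SD, n = 3). Hbegf was at 7.528, 12.04 and 17.71 CPM in tumor Lrig1-high and at 15.27, 6.262 and 25.51 CPM in tumor Lrig1-low libraries, and at 7.883, 6.551, 16.78 and 11.94 CPM in normal Lrig1-high and 11.90, 13.51, 25.28 and 14.07 CPM in normal Lrig1-low libraries. The groups overlapped in every comparison. Its log2 fold change was -0.047 ± 0.50 for tumor over normal in Lrig1-low cells, 0.20 ± 0.50 in Lrig1-high cells, -0.34 ± 0.53 for Lrig1-high over Lrig1-low in tumors and -0.59 ± 0.46 in normal epithelium (edgeR, adjusted p = 0.995, 0.876, 0.889 and 1).

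**Figure D2:**
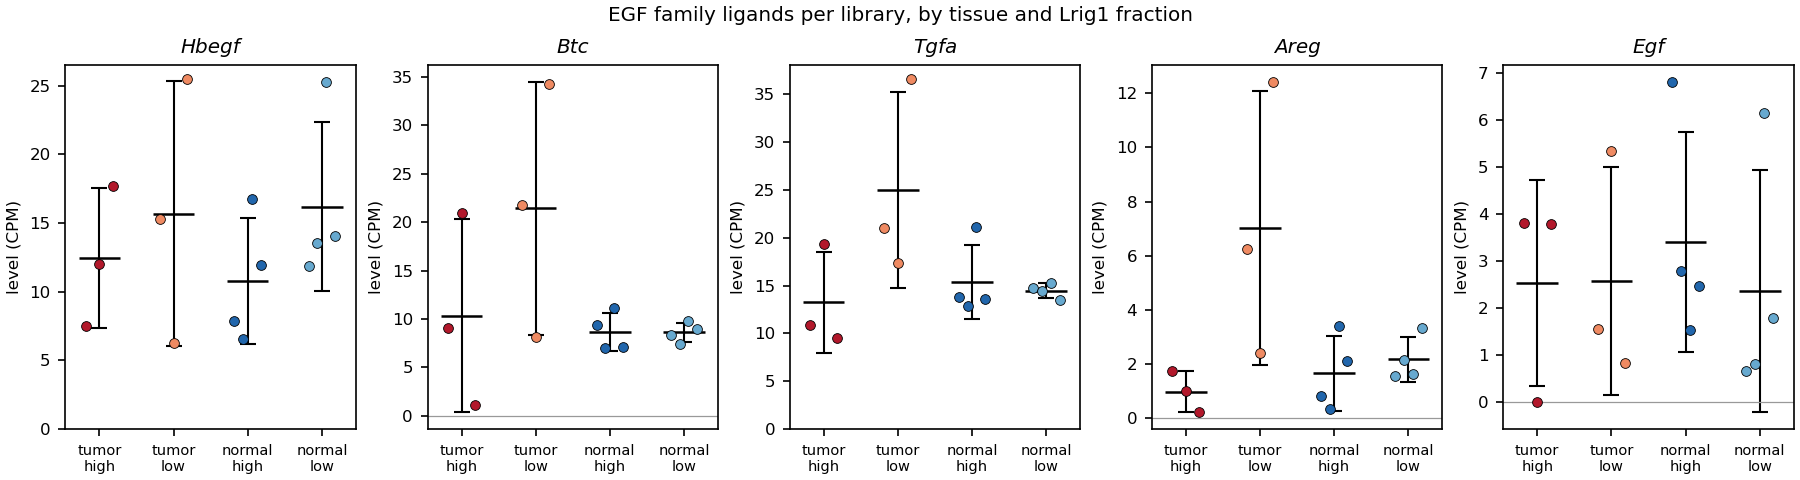
Level in CPM of the 5 tested ligands, with 1 point per library, the group mean as a horizontal line and the SD as bars; from left to right tumor Lrig1-high, tumor Lrig1-low, normal Lrig1-high and normal Lrig1-low cells. Areg, Hbegf, Btc and Tgfa have their highest point in the same tumor Lrig1-low library (S11, at 12.42, 25.51, 34.31 and 36.60 CPM), and the highest Egf point is in normal Lrig1-high cells (6.811 CPM).

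The tumor Lrig1-low library S11 was the highest of the 14 for 4 of the 5 tested ligands (Areg, Hbegf, Btc and Tgfa), and S12 was the lowest for Areg, Btc and Tgfa. S11 also had the highest summed level of 9 endothelial markers, at 197.3 CPM against 3.42 to 52.07 CPM in the other libraries, with Emcn and Cldn5 at 0 in every library and Cdh5 at 154.7 CPM in S11. Its summed level of 10 fibroblast markers was 121.9 CPM against 10.91 to 33.56 CPM in the others, with Vim at 95 CPM, Pdgfra at 26.02 CPM and Col1a1, Col1a2 and Lum at 0. Across all markers 7 of 9 endothelial and 6 of 10 fibroblast genes had a count in S11, and its 12 leukocyte markers summed to 7.615 CPM, within the 3.456 to 57.26 CPM of the others. Their part in the ligand levels was not tested.

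Without S07, S08, S09 and S10, the libraries whose Lrig1 level went against their label, 0 ligands were called in each comparison (edgeR). For tumor over normal in Lrig1-low cells the log2 fold changes were then 1.97 ± 0.94 for Areg, 1.74 ± 0.66 for Btc and 0.997 ± 0.305 for Tgfa (edgeR, adjusted p = 0.322, 0.205 and 0.121). For Lrig1-high over Lrig1-low in tumors they were -3.14 ± 1.14 for Areg and -1.43 ± 0.35 for Tgfa (edgeR, adjusted p = 0.201 and 0.113). This set of libraries was chosen after seeing the data.

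**Figure D3:**
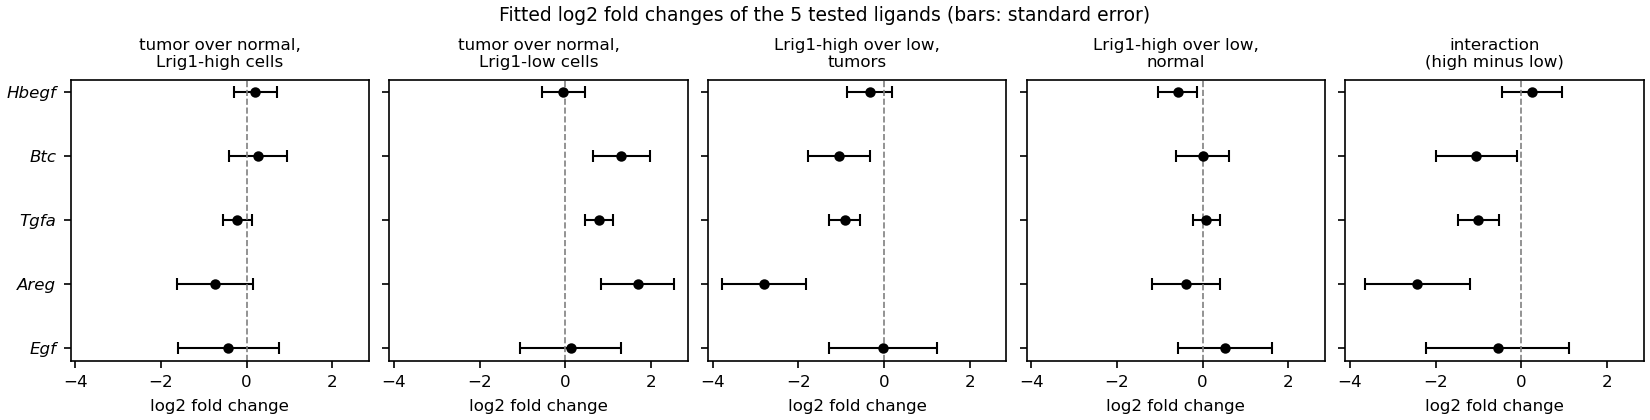
Fitted log2 fold changes of the 5 tested ligands with their standard errors as bars, in a panel per comparison, where a positive value means higher in the first-named group. The bars of Areg, Btc and Tgfa lie right of 0 for tumor over normal in Lrig1-low cells (1.69, 1.31 and 0.79) and left of 0 for Lrig1-high over Lrig1-low in tumors (-2.81, -1.05 and -0.92), and none of these passed the adjusted threshold.

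Egf, the founding member of the family, followed a different order over the libraries. It was at 3.804, 0 and 3.780 CPM in tumor Lrig1-high libraries S04, S08 and S12, at 1.548, 5.343 and 0.813 CPM in tumor Lrig1-low libraries S03, S07 and S11, at 6.811, 2.779, 1.514 and 2.460 CPM in normal Lrig1-high libraries S02, S06, S10 and S14, and at 0.652, 0.805, 6.138 and 1.788 CPM in normal Lrig1-low libraries S01, S05, S09 and S13. The groups overlapped in every comparison, and the 0 counts of S08 allow a level of up to 0.274 CPM (3 counts). Its log2 fold changes were small against their errors, at 0.13 ± 1.17 and -0.42 ± 1.19 for tumor over normal in Lrig1-low and Lrig1-high cells (edgeR, adjusted p = 0.994 and 0.893).

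The 6 libraries with the most Egf, at 2.779 to 6.811 CPM, were also the 6 with the highest summed level of 7 Paneth cell markers (Lyz1, Defa17, Defa24, Ang4, Mmp7, Itln1, Pla2g2a), at 2081 to 12370 CPM. The other 8 libraries held 0 to 2.460 CPM of Egf and 86.12 to 1953 CPM of these markers. Among those 8 the orders differed: S13 had the lowest marker sum with 1.788 CPM of Egf, and S08 had 939.4 CPM of markers with no Egf count. The match was not particular to Paneth markers. The 10 stem cell markers summed to between 2716 (S09) and 8105 CPM (S06) in the 6 libraries and to 5967 CPM in S14, against 488.3 to 1705 CPM in the rest. By label the 6 came from each of the 4 groups, with S04 and S12 from tumor Lrig1-high, S07 from tumor Lrig1-low, S02 and S06 from normal Lrig1-high and S09 from normal Lrig1-low cells. By Lrig1 RNA, however, the 6 and S14 were the libraries above the median of all 14 (64.04 CPM). S07 (141.6 CPM) and S09 (85.48 CPM) were among them despite their Lrig1-low labels. Of the 7 Paneth markers, 6 or 7 had a count in every library. The part of either list, or of the Lrig1 level, in the Egf level was not tested.

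**Figure D4:**
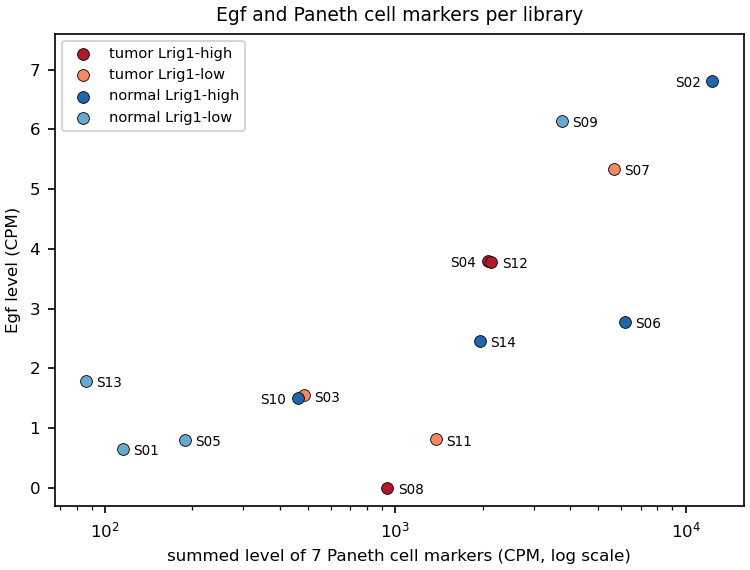
Egf level in CPM against the summed level of 7 Paneth cell markers in CPM on a log scale, with 1 point per library coloured by group. The 6 libraries at or above 2081 CPM of Paneth markers hold the 6 highest Egf levels, from 2.779 to 6.811 CPM, and S08 lies at 0.

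Genes that followed each ligand most closely over the 14 libraries were looked up among 8416 or 8417 tested genes with a mean of at least 10 CPM, by the Pearson correlation of log2(CPM + 1). These are descriptions with no p, since the genes were picked by this measure and the libraries share depth and a few far points. For Egf they were Kcnq1, a potassium channel (r = 0.898, Spearman's rho = 0.846), and the Paneth defensins Defa21 (r = 0.890) and Defa30 (r = 0.882), whose counts are uncertain because near-identical defensin genes can lose or share reads. For Btc they were Esyt1, a lipid transfer protein of membrane contacts (r = 0.964), Ctsd, the lysosomal protease cathepsin D (r = 0.963), and Mafg, a small Maf transcription factor (r = 0.957). For Tgfa they were Eaf1 (r = 0.944), the receptor kinase feedback inhibitor Spry1 (r = 0.920) and again Ctsd (r = 0.912). Areg was followed most closely by Ptgfrn (r = 0.916) and Tnks1bp1 (r = 0.901), and Hbegf by Zfp512b (r = 0.904) and Car9, a carbonic anhydrase (r = 0.892). Without S03 and S11, the libraries farthest from the median of Areg, the r values of Ptgfrn and Tnks1bp1 were 0.751 and 0.709, and those of Btc's genes without S11 and S12 were 0.901, 0.852 and 0.850. For Tgfa without S11 and S12 they were 0.962 (Eaf1), 0.775 (Spry1) and 0.885 (Ctsd). For Hbegf without S09 and S11 they were 0.851 (Zfp512b) and 0.925 (Car9). For Egf without S02 and S08 they were 0.864 (Kcnq1), 0.877 (Defa21) and 0.822 (Defa30).

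The remaining 3 ligands were near the limit of detection and were not tested. Ereg, epiregulin, had 80 counts in 10 of 14 libraries and reached 2.594 CPM in the normal Lrig1-low library S05. It was at 0.317, 0 and 0.324 CPM in tumor Lrig1-high and 0.985, 0 and 0 CPM in tumor Lrig1-low libraries, and at 0.315, 0.463, 0.303 and 0.0724 CPM in normal Lrig1-high and 0.245, 2.594, 0 and 0.700 CPM in normal Lrig1-low libraries. Nrg1, neuregulin 1, had 8 counts in 3 libraries (S03, S04 and S10), and Epgn, epigen, had 2 counts in 1 library (S14). A count of 0 allows a level of up to 0.172 to 0.324 CPM, depending on the library, so differences below that were not detectable at this depth.

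Of the 4 ErbB receptors, 3 were tested and 0 were called in any comparison by edgeR, while Erbb4 had 4 counts in S11 and 0 elsewhere. At an unadjusted p under 0.05 there were 2 of 3 (Erbb2 and Erbb3) for tumor over normal in Lrig1-low cells and the same 2 as the mean of both fractions, where 14% and 17.4% of all genes had one. Erbb3 was the 1 gene at this level for Lrig1-high over Lrig1-low in normal epithelium and for the interaction (3.59% and 7.2% of all genes), and there were 0 of 3 for tumor over normal in Lrig1-high cells and for the fractions of tumors (11.2% and 7.51%). Erbb2, the receptor partner with no ligand of its own, was at 151.9, 114.4 and 112.7 CPM in tumor Lrig1-low libraries and at 200.4, 218.9, 178.0 and 180.6 CPM in normal Lrig1-low libraries. These groups did not overlap, as for 8.42% of genes tested in this direction, and the log2 fold change was -0.62 ± 0.18 (edgeR, adjusted p = 0.125). DESeq2 and limma-voom each called Erbb2 lower in this comparison. Erbb3, the neuregulin receptor, lay between 141.0 and 414.4 CPM in 13 libraries and at 9166 CPM in the normal Lrig1-low library S13, so its fitted changes and their p rest on that library, and the changes are not given. Egfr, named here outside the rule for genes, was at 2.592 CPM in S12 and between 25.29 and 56.52 CPM in the others.

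The proteases and rhomboids that release or traffic the ligands gave 0 of 7 called in each comparison by edgeR. For tumor over normal as the mean of both fractions, 7 of 7 had a positive log2 fold change, with a median of 0.387, against 48.4% positive and a median of -0.0167 over all genes tested. Adam10, the protease that sheds Egf and Btc, was at 199.5, 186.1 and 226.4 CPM in tumor Lrig1-high and 251.2, 186.2 and 383.9 CPM in tumor Lrig1-low libraries, against 152.0 to 168.4 CPM in normal Lrig1-high and 152.0 to 177.7 CPM in normal Lrig1-low libraries. All 6 tumor libraries were above all 8 normal ones, as for 0.893% of genes tested, and the log2 fold change was 0.56 ± 0.15 (edgeR, adjusted p = 0.0718). DESeq2 and limma-voom each called Adam10 higher here, the 1 gene of the 7 that they did. By edgeR 2 of 7 had an unadjusted p under 0.05, against 17.4% of all genes. Adam9, another metalloprotease of the family, had a log2 fold change of 0.50 ± 0.30 in the same comparison (edgeR, adjusted p = 0.426). In Lrig1-low cells Adam9 was at 58.47, 60.95 and 91.38 CPM in tumor and at 43.19, 38.46, 45.48 and 34.90 CPM in normal libraries. These groups did not overlap, as for 9.93% of genes tested in this direction, and the log2 fold change was 0.80 ± 0.42 (edgeR, adjusted p = 0.449). Limma-voom called Adam9 and Adam10 higher there, and DESeq2 called Adam10. Of the other 3 neuregulins Nrg4, an ERBB4 ligand, was tested and was not called by edgeR, DESeq2 or limma-voom. It averaged 3.258 ± 3.374 CPM in tumor (SD, n = 6) and 3.592 ± 1.379 CPM in normal libraries (SD, n = 8).

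Some of the genes that ERK signalling induces rose in tumors. Of 17 ERK output and feedback genes, 4 (Phlda1, Etv5, Dusp6 and Etv4) rose and 0 fell for tumor over normal as the mean of both fractions, where 1.82% of all genes tested rose and 0.396% fell, by edgeR. In this comparison 15 of 17 were positive, with a median log2 fold change of 1.41, while Dusp5 (-0.30) and Egr1 (-0.04) were negative. This list, like the other gene lists here, was chosen with earlier results of these data known. Its counts beside the shares of all genes are therefore descriptions and no test of the list. In Lrig1-low cells alone 1 of 17, Phlda1, rose, against 0.31% of all genes, and in Lrig1-high cells alone 0 did, with medians of 1.88 and 0.582. In Lrig1-high cells edgeR gave 5 of 17 an unadjusted p under 0.05, where 11.2% of all genes had one, and DESeq2 called 1, Phlda1. The other comparisons and the interaction called 0 of 17, with 1 or 2 genes at an unadjusted p under 0.05 in each (3.59% to 7.51% of all genes). DESeq2 called 7 of 17 higher in tumors in Lrig1-low cells and 7 as the mean of both fractions, and limma-voom called 9 and 5. Both tools also called more of all genes than edgeR in these comparisons, with the counts given in the last section. The edgeR shares above are therefore not the background for their counts. Etv4, Dusp5 and Egr1 are named although the rule for naming stops at 3 genes.

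Marker sums also differed in median between all tumor (n = 6) and all normal libraries (n = 8), with overlap of the ranges for each list. The 11 enterocyte markers summed to a median of 1586 CPM (730.7 to 3589) in tumor and 4250 CPM (1329 to 7900) in normal libraries, and 8 goblet markers to 8590 CPM (2560 to 15060) in tumor and 15940 CPM (4781 to 48620) in normal libraries. The 10 stem cell markers summed to 3340 CPM (858.1 to 7483) in tumor and 1732 CPM (488.3 to 8105) in normal libraries. Each gene of these lists had a count in every library. The 9 endothelial markers summed to 33.11 CPM (9.034 to 197.3) in tumor and 5.781 CPM (3.42 to 41.07) in normal libraries, with 4 to 7 of 9 at a count in tumor and 4 to 6 in normal libraries. Much of this sum was 1 gene: Cdh5 held 154.7 of 197.3 CPM in S11, 31.94 of 52.07 in S03 and 26.57 of 28.19 in S12, but 2.615 of 9.034 in S04. Pecam1 was highest in a normal library (1.848 CPM in S09), and Emcn and Cldn5 were at 0 in every library. The part of these marker lists in the changes of the ERK output genes was not tested.

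Phlda1, a growth-factor-induced gene, was at 45.80, 55.44 and 74.09 CPM in tumor Lrig1-high and at 70.57, 43.49 and 144.2 CPM in tumor Lrig1-low libraries, against 13.53 to 20.75 CPM in normal Lrig1-high and 6.926 to 13.33 CPM in normal Lrig1-low libraries. All 6 tumor libraries were above all 8 normal ones, as for 0.893% of genes tested. Its log2 fold change was 2.34 ± 0.26 as the mean of both fractions (edgeR, adjusted p = 0.00194) and 2.95 ± 0.37 in Lrig1-low cells (edgeR, adjusted p = 0.00907). The second call was lost without S01 (adjusted p = 0.0545), and the first was kept without each library in turn, with adjusted p from 0.000586 to 0.00936.

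Etv5 and Etv4, transcription factors of the PEA3 group downstream of ERK, averaged 69.58 ± 65.44 and 15.18 ± 7.76 CPM in tumor libraries (SD, n = 6), against 7.479 ± 8.933 and 2.534 ± 2.076 CPM in normal libraries (SD, n = 8). Their log2 fold changes were 3.37 ± 0.64 and 2.64 ± 0.57 (edgeR, adjusted p = 0.0256 and 0.0338). Dusp6, a phosphatase that switches ERK off, averaged 30.83 ± 17.46 CPM in tumor and 9.216 ± 4.319 CPM in normal libraries, with a log2 fold change of 1.71 ± 0.35 (edgeR, adjusted p = 0.0302). Dusp6 and Etv4 did not overlap between all tumor and all normal libraries (again 0.893% of genes), while for Etv5 the normal Lrig1-high library S10, at 28.65 CPM, was above the lowest tumor library, S04, at 21.63 CPM. S11, the library with the most ligand RNA, was also the highest for each of these 4 genes, and without it the calls of Etv5, Etv4 and Dusp6 were lost while Phlda1 was kept. Their log2 fold changes without S11 were 2.74, 2.37 and 1.41 (edgeR, adjusted p = 0.0826, 0.109 and 0.101). Leaving out S01, S02, S05, S06, S13 or S14, all normal libraries, also left Phlda1 as the 1 gene of the list called. The call of Dusp6 was lost without the tumor library S08 as well (edgeR, adjusted p = 0.0513), and that of Etv4 without S12 (edgeR, adjusted p = 0.0576).

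**Figure D5:**
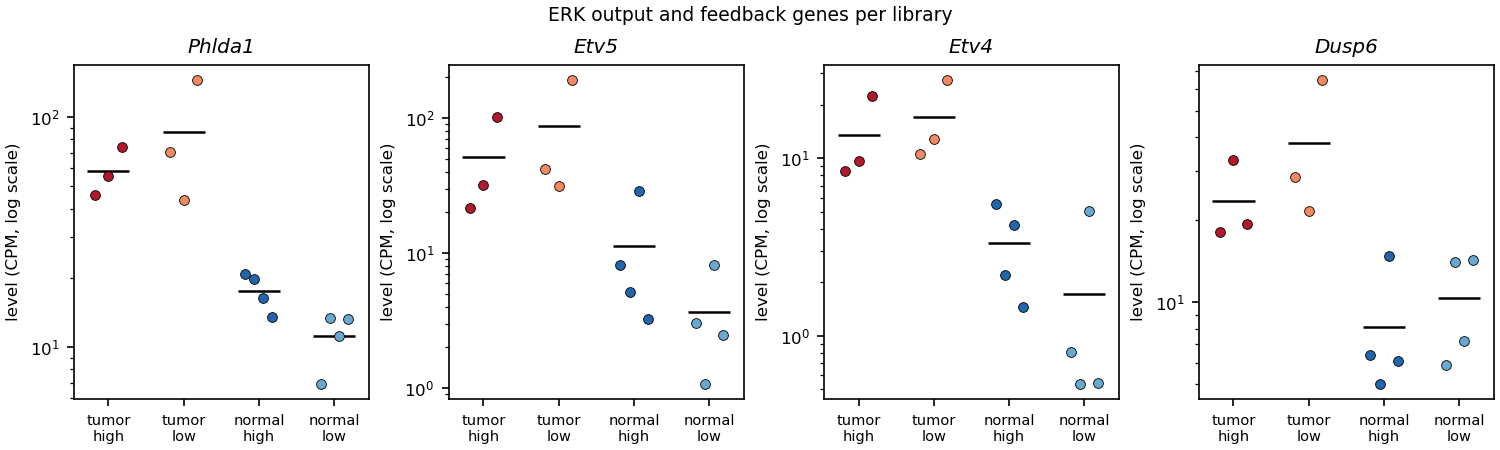
Level in CPM on a log scale of Phlda1, Etv5, Etv4 and Dusp6, with 1 point per library and the group mean as a line; from left to right tumor Lrig1-high, tumor Lrig1-low, normal Lrig1-high and normal Lrig1-low cells. For Phlda1 the 6 tumor libraries (43.49 to 144.2 CPM) are above the 8 normal libraries (6.926 to 20.75 CPM), and for Etv5 1 normal library, at 28.65 CPM, lies among the tumor ones.

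Of 8 genes that restrain ErbB receptors, 1 rose, the ubiquitin ligase gene Cblb, and 0 fell by edgeR for tumor over normal as the mean of both fractions, where 1.82% of all genes rose and 0.396% fell. In this comparison DESeq2 called Cblb higher and Socs4, a gene of the SOCS family, lower, and limma-voom called Cblb higher. Cblb averaged 61.40 ± 24.26 CPM in tumor (SD, n = 6) and 30.94 ± 7.12 CPM in normal libraries (SD, n = 8), with a log2 fold change of 0.99 ± 0.23 (edgeR, adjusted p = 0.0463). Its highest level, 105.6 CPM, was in S12, where leaving it out gave 0.68 ± 0.18 (edgeR, adjusted p = 0.0705). The call was lost in 10 of 14 fits that each left out 1 library, with adjusted p of up to 0.144 without S11. The other comparisons called 0 of 8 by edgeR, with up to 2 at an unadjusted p under 0.05 (3.59% to 14% of all genes). Lrig1 averaged 85.64 ± 46.86 CPM in tumor and 85.34 ± 45.18 CPM in normal libraries (edgeR, adjusted p = 0.940). Of 14 genes of the RAS to ERK relay, 0 were called in each comparison by edgeR and by DESeq2. By edgeR 0 to 2 had an unadjusted p under 0.05 (3.59% to 17.4% of all genes). For Lrig1-high over Lrig1-low in normal epithelium, edgeR called 0 genes and limma-voom 4169 of the 13883 tested. The genes called by limma-voom included 2 of 3 receptors, 2 of 7 shedding genes and 2 of 8 restraint genes (Socs4 and Lrig1). They also included 4 of 17 ERK output genes and 2 of 14 relay genes. With so many of all genes called, nothing is read from these counts. Map2k2, a MEK kinase gene, had a log2 fold change of -0.34 ± 0.19 as the mean of both fractions (edgeR, adjusted p = 0.386), and Mapk3, which encodes ERK1, lay between 86.82 and 178.3 CPM in 13 libraries and at 2866 CPM in the normal Lrig1-high library S14.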

How the data were processed

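The authors deposited raw counts of reads per gene for 15 sorted-cell libraries. Per the file headers, featureCounts 1.5.3 assigned reads to the exons of RefSeq genes (mm10) with the setting for reverse-stranded libraries. No option for fragments, multi-mapping or overlaps is named there, so each read end counts and near-identical genes can lose reads. Trimmomatic, HISAT2 and Subread are also named, per the submitters' processing notes.

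Groups came from sample titles. The 14 libraries used held 9508505 to 17296536 counts and were fitted together with edgeR 4.0.16 in R 4.3.3 (TMM scaling, filterByExpr, no block), and quasi-likelihood p-values were adjusted by Benjamini-Hochberg over 13883 genes. SE is the size of the log2 fold change over the root of its F. The fits were tested on simulated data with large planted changes, in genes above a set level and for the mean of both fractions alone. That test does not cover smaller changes, genes at lower levels or the other comparisons. Alternatives were DESeq2 1.42.0, limma-voom 3.58.1, other scalings and filters, fewer libraries and a block. Ligands and gene lists were chosen with earlier results of these data known. From each list the text names up to 3 members past the threshold per comparison and direction, otherwise the 2 with the highest mean. Symbols were matched for 25275 of 27179 identifiers. Some genes picked by likeness to a ligand are not reported here.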

Additional observations from a re-analysis of the deposited data

Results flagged for a closer look

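In 46 groups of 4 libraries, the highest or lowest library was set against the other 3, and 9 lay farther out than Dixon's critical value of 0.829 allows, where chance gives about 1 in 20 groups. Among the ligands, Hbegf was at 25.28 CPM in the normal Lrig1-low library S09, against 11.9 to 14.07 CPM in the other 3, and Tgfa was at 21.14 CPM in the normal Lrig1-high library S10, against 12.9 to 13.81 CPM. Epgn in the normal Lrig1-high library S14 (0.1447 CPM, 2 counts) and Nrg1 in S10 (0.1817 CPM, 3 counts) were set against 0 in the other 3 libraries. There any count passes this rule, and both values lie at or under the level that 3 counts give in those libraries (0.217 CPM in S14 and 0.182 CPM in S10), so nothing is read from them.

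The other 5 were genes of the pathway. Erbb3 was at 9166 CPM in the normal Lrig1-low library S13, against 260.3 to 414.4 CPM, and Mapk3 at 2866 CPM in the normal Lrig1-high library S14, against 86.82 to 120.9 CPM. Egr1, an immediate early gene, was at 250.3 CPM in S09, against 54.41 to 74.51 CPM. Etv4 was at 5.016 CPM in S09, against 0.5367 to 0.8149 CPM, and Dusp6 at 14.78 CPM in S10, against 5.029 to 6.433 CPM. The libraries S09 and S10, which hold 6 of the 9 values, are among the 4 whose Lrig1 level went against their label.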

How the results depend on the processing

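No ligand was called under any alternative except limma-voom with sample weights, which called 2 (Btc and Tgfa) for tumor over normal in Lrig1-low cells. DESeq2 and limma-voom were run on the same 13883 genes as edgeR. The number of genes called for tumor over normal in Lrig1-low cells was 46, against 706 by DESeq2 and 1389 by limma-voom. It was 70 with DESeq2 size factors, 86 with at least 1 CPM in 4 libraries and 92 with S15 included. It was 95 with runs of library numbers as a replicate block, 452 without S07, S08, S09 and S10, and 0 to 285 leaving out each library in turn. In Lrig1-high cells it was 0, against 114 by DESeq2, 1 with the replicate block, 12 without those 4 and 0 to 807 leaving out each library. For the mean of both fractions it was 308, against 1060 by DESeq2, 548 by limma-voom, 165 with the replicate block, 658 without those 4 and 34 to 1060 leaving out each library. For Lrig1-high over Lrig1-low in normal epithelium it was 0, against 1 by DESeq2, 4169 by limma-voom and 796 without those 4. In tumors it was 0, against 22 by DESeq2, 48 without those 4 and 0 to 365 leaving out each library, and for the interaction 0, against 5 by DESeq2 and 0 to 157 leaving out each library. The causes were not tested.

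Some ligand log2 fold changes turned sign. For tumor over normal in Lrig1-low cells Hbegf was 0.0629 by limma-voom and 0.610 without those 4, and -0.590 to 0.329 leaving out each library, with Egf at -0.991 to 1.23. In Lrig1-high cells Areg was 0.576 by limma-voom and Btc -0.587 without those 4, and leaving out each library gave -0.762 to 0.759 for Btc, -0.174 to 0.499 for Hbegf and -0.851 to 0.167 for Egf. For the mean of both fractions Egf was 0.0286 without those 4 and -0.707 to 0.396 leaving out each library, with Hbegf at -0.195 to 0.265. For Lrig1-high over Lrig1-low in normal epithelium Btc was -0.083 by limma-voom, -0.00503 with the replicate block and -0.058 without those 4, Tgfa was -0.0462 by limma-voom and -0.0625 without those 4, and leaving out each library gave -0.141 to 0.102 for Btc, -0.108 to 0.161 for Tgfa and -0.0645 to 1.66 for Egf. In tumors Egf was 1.72 without those 4 and -0.452 to 1.09 leaving out each library, with Hbegf at -0.714 to 0.206. For the interaction Hbegf was -0.0691 without those 4 and -0.128 to 0.791 leaving out each library, with Egf at -1.67 to 0.568. Under the replicate block, Dusp6 and Cblb were no longer called for the mean of both fractions (adjusted p = 0.0607 and 0.147), and the labels do not say that a run of library numbers shares an animal. Without the filter on low counts, or with S15, Cblb was not called (adjusted p = 0.0551 and 0.0556). Areg rests on 548 counts and Egf on 551 over 14 libraries, which limits both.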
